A study of Mus musculus with 15 samples.

Results

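The response to 4-OH tamoxifen in a mouse biliary epithelial cell line with floxed Klf5 was measured at 12 h and at 24 h, and the genes described here are those with a p-value at both times. They numbered 14981 of 24421 gene symbols. For each gene the log2 folds of tamoxifen over ethanol at both times were combined into 1 fold, each weighted by the inverse of its squared standard error (SE). The difference, 24 h minus 12 h, was set beside it with the root of the summed squared SEs. The genes were chosen by having a p-value at both times and by no other value: 723 symbols had a p-value at 12 h alone, 838 at 24 h alone, and 7879 had a mean of 0 at both times. The highest mean among the 723 was 3.39 normalised counts at 12 h, and among the 838 it was 690 at 24 h. None of the 723 and none of the 838 was called by the authors at the time where it was tested.

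All libraries came from 1 established line from bile ducts of adult C57BL/6 mice, with the genotype ITR-CreERT2;Klf5flox/flox, and all carry the floxed alleles and the inducible recombinase. Ethanol, the solvent, was given to 3 libraries at 12 h and 4 at 24 h, and 4-OH tamoxifen to 4 libraries at 12 h and 4 at 24 h, 15 in all. Tamoxifen, Cre activity and loss of Klf5 lie in the same contrast and cannot be told apart, and the labels are silent on whether each library had a culture of its own, so p-values rest on the variation among these libraries alone, which may be technical. The deposited tables hold 1 comparison per time and no value per library, so levels are given as the group levels implied by the authors' mean normalised count and fold. The times were normalised separately, so a level at 12 h set beside one at 24 h is a description and was not tested. In such bulk samples fewer cells of a kind and less RNA per cell cannot be told apart.

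Klf5 is a zinc finger transcription factor of the Krüppel-like family. These factors bind GC-rich and CACCC-type elements in promoters and enhancers, and Klf5 is known for its part in the growth and barrier of epithelia such as those of gut, bladder and skin. Biliary epithelial cells line the bile ducts, carry the keratins Krt7 and Krt19, and modify bile. CreERT2 is a recombinase that enters the nucleus when tamoxifen is bound, where it cuts out DNA between loxP sites, so a shared change at both times and a change that grows between them are the comparisons this design allows.

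The biliary label was checked against its markers. Krt19, Spp1, Tspan8 and Sox9 had means of 23752, 25377, 9679 and 742 normalised counts at 12 h in the authors' deposited table. Epcam, Cftr and Prom1 were low there, with means of 15.7, 2.25 and 1.69 at 12 h. Of 6 hepatocyte markers, 3 were well above 0 in the authors' deposited tables: the hepatic factor gene Hnf4a at 7584 and 4146, the apolipoprotein gene Apoa1 at 1291 and 448 and the transthyretin gene Ttr at 685 and 267. The other 3 were near or at 0 there, with Alb at 3.68 and 1.48, Cps1 under 1 and Cyp2e1 at 0. Of 18 fibroblast, endothelial and immune markers, Cd68 (76.4 and 76.1) and Col1a1 (29.6 and 10.8) had means over 10 in the authors' deposited tables, and 7 were at 0 at both times. The normalised counts summed to 13.9 M per library at 12 h and 11.8 M at 24 h on average.

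The later time set most combined values. Over the 9860 genes whose mean reached 50 normalised counts at both times, the median SE of the authors' fold was 0.159 at 12 h and 0.0777 at 24 h. The 24 h fold therefore carried a median of 79.0% of the weight, with quartiles of 70.4% and 85.8%, and over 50% of it in 9632 of the 9860. The 12 h fold had the larger weight where the 24 h SE was the larger one, as in Cep290, where the 24 h weight was 12.9%.

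Falls were somewhat more frequent than rises in the combined fold. At an adjusted p under 0.05 (two-sided Wald test, Benjamini-Hochberg over the 14981 genes), 1574 genes passed, 10.5% of those tested. Of them 849 fell (5.67%) and 725 rose (4.84%). Falls were the more frequent among large changes: 70 genes fell by 1 or more on the log2 scale, and 17 rose by as much. At a size of 0.5 or more the counts were 215 falls and 160 rises, and the median combined fold was -0.29 among falls and 0.30 among rises. With both times given equal weight 370 genes fell and 305 rose.

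**Figure D1:**
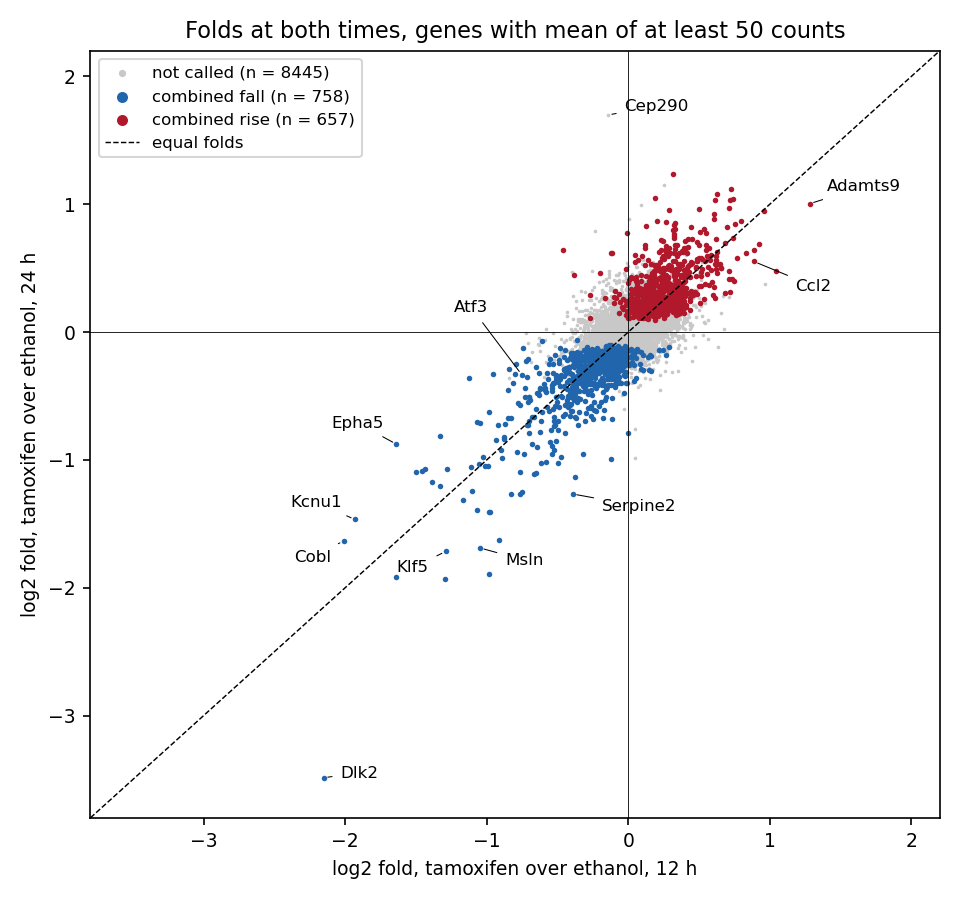
The authors' log2 fold of tamoxifen over ethanol at 12 h (horizontal axis) against that at 24 h (vertical axis) for the 9860 genes whose mean reached 50 normalised counts, coloured by the call on the combined fold. The 758 falls and 657 rises lie along the line of equal folds, Dlk2 is farthest from 0, Cep290 and Serpine2 lie off the line, and 8445 genes in grey were not called.

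The targeted gene fell at both times. Klf5 (chromosome 14, 99298691 to 99315036, forward strand of GRCm38) had implied levels of 652 normalised counts with ethanol and 266 with tamoxifen at 12 h, and of 938 and 285 at 24 h. The authors' deposited table gives folds of -1.29 (SE 0.23) and -1.72 (SE 0.08). The combined fold was -1.67 (SE 0.07), which is 31.3% of the ethanol level, and the difference of -0.43 (SE 0.24) had a 95% interval from -0.90 to 0.05 and 0.0802 as its unadjusted p by Wald test. The tables count the whole gene, so reads from exons that recombination leaves in place are counted as Klf5.

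The deepest combined falls are given for genes whose mean reached 50 normalised counts and whose folds had the same sign at both times. Some genes of lower mean fell further. Dlk2, a membrane protein with EGF-like repeats and kin of the Notch ligands, had the deepest of them, -2.80 (SE 0.22), and its implied level went from 124 to 27.8 normalised counts at 12 h and from 96.0 to 8.56 at 24 h. Sprr2h, of the small proline-rich family of the cornified envelope, had a combined fold of -1.85 (SE 0.09), and the calcium-dependent membrane-binding annexin Anxa8 one of -1.85 (SE 0.08). Anxa8 had lower levels at 24 h in both arms of the separately normalised tables: 4517 with ethanol and 1845 with tamoxifen at 12 h, against 995 and 260 at 24 h, as implied by the means in the authors' deposited tables. The actin nucleator Cobl (-1.74 (SE 0.17)), the potassium channel Kcnu1 (-1.73 (SE 0.14)) and mesothelin, Msln (-1.56 (SE 0.05)), followed. The remaining 5 of these 12 were Ms4a4b, a membrane protein known from lymphocytes (-1.34 (SE 0.15)), the adhesion receptor Adgrl3 (-1.31 (SE 0.13)), the pantetheinase Vnn1 (-1.31 (SE 0.08)), the collagenase Mmp13 (-1.29 (SE 0.11)) and the retinol dehydrogenase Rdh10 (-1.28 (SE 0.08)). Sprr2h and Ms4a4b belong to families of similar genes, so reads may have been shared within the family. By strength of evidence Msln came first (adjusted p 5.62e-192 in the Wald test of the combined fold), and Ahnak, a giant scaffold protein of the plasma membrane, was the other gene among the 6 smallest p of falls, at -0.85 (SE 0.04).

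Under the same limits on the mean and the sign, the largest rises were of smaller size than those falls. Adamts9, a secreted metalloproteinase, had a combined fold of 1.09 (SE 0.17), 213% of the ethanol level, with implied levels of 49.9 and 121 normalised counts at 12 h and 50.5 and 101 at 24 h. The matrix protein thrombospondin Thbs1 stood at 0.95 (SE 0.14), and the small GTPase Rasl11a at 0.99 (SE 0.18). The monocyte chemokine Ccl2 (0.84 (SE 0.12)), the lipoprotein phospholipase Pla2g7 (0.81 (SE 0.17)) and the pyruvate dehydrogenase kinase Pdk4 (0.78 (SE 0.12)) were also among the 12 largest, with Disp2, Pak3, Pamr1, Smtnl2 and Pipox at 0.91, 0.91, 0.84, 0.81 and 0.80. The smallest p of the rises belonged to fibronectin, Fn1 (0.52 (SE 0.05)), whose implied level went from 10752 to 13706 at 12 h and from 21159 to 30576 at 24 h. The phosphatase Ptpn13 (0.74 (SE 0.07)), Glipr1 (0.51 (SE 0.05)), the efflux transporter Abcc4 (0.35 (SE 0.04)), the antiviral deaminase Apobec3 (0.56 (SE 0.06)) and D17H6S56E-5 (0.44 (SE 0.05)) followed in p. Of the exon bases of Glipr1, 22.8% are shared with a gene on the other strand, and the kit does not mark strand. None of these 5 genes nor Fn1 was called by the authors at 12 h, where their folds in the authors' deposited table ran from 0.26 to 0.44.

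**Figure D2:**
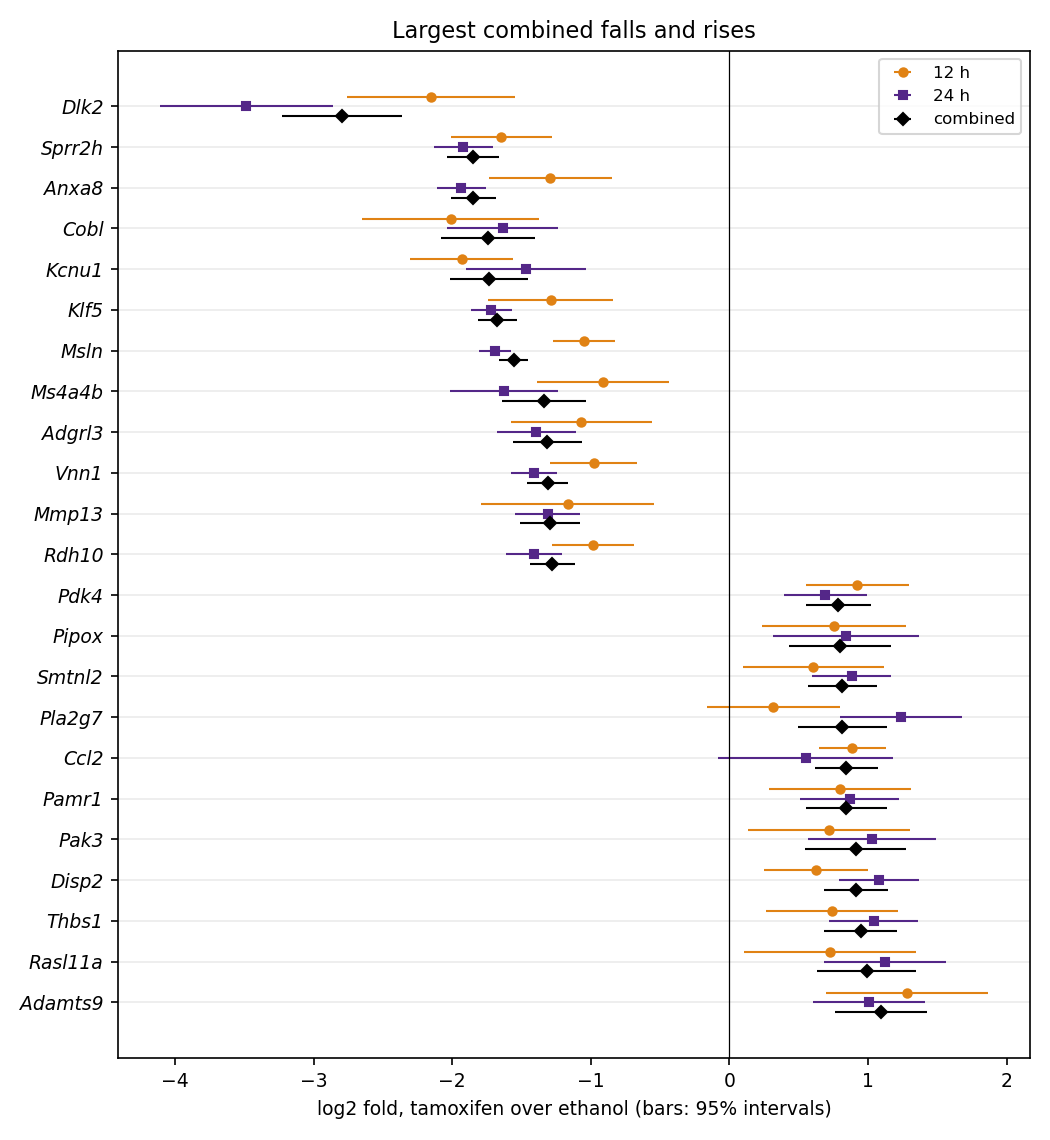
Log2 folds of the 12 deepest combined falls and 11 of the 12 largest combined rises of genes whose mean reached 50 normalised counts (horizontal axis) at 12 h, at 24 h and combined, with bars for 95% intervals. Only genes with folds of the same sign at both times were eligible. The intervals of Pla2g7 at 12 h and of Ccl2 at 24 h reach past 0.

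Most of what was called at one time had the same sign at the other. By the authors' adjusted p under 0.05, 123 of the 14981 genes were called at 12 h in the authors' deposited table (0.821%; 95 lower, 0.634%, and 28 higher, 0.187%) and 1447 at 24 h (9.66%; 760 lower, 5.07%, and 687 higher, 4.59%). All 95 falls of 12 h had a negative fold at 24 h, with an unadjusted p under 0.05 there for 83, and 27 of the 28 rises had a positive one, with 20 under 0.05. The median fold of the 95 falls was -0.88 at 12 h and -0.89 at 24 h, and 37 of them were larger in size at 24 h. The 28 rises had medians of 0.71 and 0.53, and 5 were larger at 24 h. These medians are of folds chosen for passing at 12 h. In the other direction, 694 of the 760 falls of 24 h and 611 of the 687 rises had the same sign at 12 h, with 225 and 141 at an unadjusted p under 0.05 there. Chosen for passing at 24 h, the falls had median folds of -0.19 at 12 h and -0.28 at 24 h, and 589 of the 760 were larger in size at 24 h. The rises so chosen had medians of 0.20 and 0.33, and 552 of the 687 were larger at 24 h. Of all 14981 genes, 5.13% had an unadjusted p under 0.05 at 12 h and 19.0% at 24 h in the authors' deposited tables. Over all 14981 genes 65.3% had the same sign at both times, and 68.9% did among the 9860 of higher mean. Across all genes Pearson's r of the folds was 0.18 and Spearman's rank correlation 0.33, and among the 9860 they were 0.66 and 0.54; genes share libraries and are not independent replicates. The times share no library.

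Both times called 96 genes, 78 lower and 18 higher, and 0 in opposite directions. Of the 849 combined falls, the authors called 78 at both times, 17 at 12 h alone, 625 at 24 h alone and 129 at neither; of the 725 combined rises they called 18, 8, 581 and 118. The fold had the same sign at both times in 815 of the falls and 691 of the rises. Both folds enter the combined call, which favours equal signs, so these counts are not separate support. Genes at an unadjusted p under 0.05 at both times numbered 461 with the same sign, 282 lower and 179 higher, against 2 with opposite signs. Those 2, chosen after their values were seen, were Cfap69, a protein of motile cilia and sperm tails, at -0.37 (SE 0.16) and 0.19 (SE 0.09) in the authors' deposited tables, and Tcstv1, a gene of low level, whose fold was positive at 12 h and -2.62 (SE 1.10) at 24 h there.

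Combining the times added 247 calls that neither time gave alone. The largest of these falls was Ifi27l2b, of an interferon-induced family, with -0.71 (SE 0.21) and -0.73 (SE 0.45) in the authors' deposited tables and a combined -0.72 (SE 0.19) (adjusted p 0.00380 in the Wald test). The inflammasome sensor Naip5 (-0.60 (SE 0.20)), Adamtsl4 (-0.55 (SE 0.15)), Frat2 (-0.54 (SE 0.14)), Gas2 (-0.54 (SE 0.16)) and the immediate early factor Fos (-0.52 (SE 0.13)) came next. Among the rises of this kind were complement C3, with 0.83 (SE 0.24) and 0.62 (SE 0.34) in the authors' deposited tables and a combined 0.76 (SE 0.19), the glutathione transferase Gstt1 (0.72 (SE 0.22)) and the interferon-inducible GTPase Irgm2 (0.61 (SE 0.16)), followed by Gulp1, Gsap and Cyp4v3 at 0.55, 0.54 and 0.54. The SE of C3 at 24 h was 6.51 times that of genes of similar mean. Those of Ifi27l2b, Naip5, Fos and Gstt1 were 3.61, 3.46, 3.30 and 2.98 times.

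The difference between the times passed the threshold in 2 genes, 0.0134% of those tested, and both fell more at 24 h. Serpine2 encodes protease nexin-1, a secreted inhibitor of thrombin and plasminogen activators. Its implied level went from 944 to 719 normalised counts at 12 h and from 3268 to 1358 at 24 h, so the ethanol level was the higher one at 24 h in the separately normalised tables. The fold was -0.39 (SE 0.14) at 12 h, where the authors' deposited table does not call it (adjusted p 0.264 by the authors' Wald test), and -1.27 (SE 0.09) at 24 h. The difference was -0.87 (SE 0.17), with a 95% interval from -1.21 to -0.54 and an adjusted p of 0.00346 in the Wald test. Msln, a glycoprotein anchored at the surface of mesothelial and some epithelial cells, went from 15074 to 7291 at 12 h and from 7117 to 2207 at 24 h. Its folds were -1.05 (SE 0.11) and -1.69 (SE 0.06) in the authors' deposited tables, and the difference of -0.64 (SE 0.13) had an interval from -0.89 to -0.39 and 0.00485 as its adjusted p by the same test. With SEs no smaller than those of genes of similar mean, the adjusted p of Msln was 0.0626, past the threshold, and Serpine2 alone was called. Neither gene turned sign between the times.

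Promoters are shown for Serpine2, as the gene with the smallest p of the difference, and for Dlk2 and Anxa8, as deep combined falls with a further drop at 24 h at an unadjusted p of 0.00262 and 0.00846. Each is 300 bases from RefSeq on GRCm38.p6, 5′ to 3′, and capitals mark matches to CCNCNCCC on either strand (GGGNGNGG as written here), a GC-rich pattern of Krüppel-like factors. The Serpine2 promoter is at chr1:79858616-79858915 on the reverse strand, the Dlk2 starts at chr17:46297233-46297532 and chr17:46297678-46297977 and the Anxa8 promoter at chr14:34085729-34086028, these on the forward strand.
Serpine2: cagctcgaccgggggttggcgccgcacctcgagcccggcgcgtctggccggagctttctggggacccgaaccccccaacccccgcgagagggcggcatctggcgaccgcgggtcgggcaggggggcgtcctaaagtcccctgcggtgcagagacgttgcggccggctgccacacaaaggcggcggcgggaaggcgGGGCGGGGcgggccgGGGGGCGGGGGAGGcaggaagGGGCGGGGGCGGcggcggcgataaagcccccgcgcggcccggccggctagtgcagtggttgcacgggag
Dlk2 start 1: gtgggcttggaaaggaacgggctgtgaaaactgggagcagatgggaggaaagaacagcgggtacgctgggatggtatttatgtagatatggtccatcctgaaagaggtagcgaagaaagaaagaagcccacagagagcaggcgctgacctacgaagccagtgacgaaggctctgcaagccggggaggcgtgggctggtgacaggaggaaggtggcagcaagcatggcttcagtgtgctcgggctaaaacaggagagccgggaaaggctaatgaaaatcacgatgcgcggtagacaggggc
Dlk2 start 2: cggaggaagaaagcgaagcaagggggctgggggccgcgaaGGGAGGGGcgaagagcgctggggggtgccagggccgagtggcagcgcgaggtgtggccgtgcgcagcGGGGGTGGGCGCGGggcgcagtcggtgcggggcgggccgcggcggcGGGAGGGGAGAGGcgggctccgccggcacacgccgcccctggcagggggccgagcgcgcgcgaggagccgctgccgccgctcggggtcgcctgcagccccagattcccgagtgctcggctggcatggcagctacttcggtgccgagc
Anxa8: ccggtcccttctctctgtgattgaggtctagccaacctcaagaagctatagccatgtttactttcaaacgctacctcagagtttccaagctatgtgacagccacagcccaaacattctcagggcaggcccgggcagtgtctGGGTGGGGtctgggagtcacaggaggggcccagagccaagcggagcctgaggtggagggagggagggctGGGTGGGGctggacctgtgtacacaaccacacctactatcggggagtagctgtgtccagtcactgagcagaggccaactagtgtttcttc
The Serpine2 window held 6 matches, the first Dlk2 window 0, the second 5, and Anxa8 2, overlapping ones counted. Of the 32851 promoters in the RefSeq table, 49.5% hold at least 1 such match, and of the 14007 that belong by symbol to genes tested here, 66.5%. A match describes the letters only.

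Few other genes stood out in the difference, and the test had little reach. An unadjusted p under 0.05 was reached by 245 genes, 1.64% of those tested and under the 5% of a test without differences; 148 were higher at 24 h (0.988%) and 97 lower (0.647%). The median SE of the difference was 0.181 among the 9860 genes of higher mean, so a difference had to reach 0.354 to pass even an unadjusted p of 0.05 there. The difference scores were narrower than a standard normal, with a robust SD of 0.724. With the scores divided by that SD, an alternative chosen after seeing the data, 34 genes passed (0.227%), 19 higher at 24 h (0.127%) and 15 lower (0.100%).

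Among genes whose mean reached 50 normalised counts, those next in p of the difference, down to Anxa2, went both ways. BC005561, which lies among them, is given further below. Apart from Maoa, Anxa2 and Cep290, the genes given here were named after their values were seen. Lower at 24 h were Dlc1, a GTPase-activating protein, with -0.38 (SE 0.15) and -1.13 (SE 0.13) in the authors' deposited tables and a difference of -0.76 (SE 0.19), and Tsc22d3, the glucocorticoid-induced leucine zipper, with -0.12 (SE 0.19) and -0.99 (SE 0.16) there and a difference of -0.87 (SE 0.25). Dlc1 and Tsc22d3, like Serpine2, had higher implied ethanol levels at 24 h in the separately normalised tables: 1146 against 423 normalised counts for Dlc1 and 2291 against 1071 for Tsc22d3. The amine oxidase Maoa (-0.43 (SE 0.13)), the glycosyltransferase B3galnt2 (-0.49 (SE 0.15)) and the annexin Anxa2 (-0.36 (SE 0.11)) had smaller differences and small SEs. Higher at 24 h were the zinc finger gene Zfp950 (0.73 (SE 0.18)), the imprinted noncoding RNA Kcnq1ot1 (1.10 (SE 0.29)), the ciliary transition zone gene Cep290 (1.84 (SE 0.52)), Ankrd12 (1.03 (SE 0.30)) and the mitotic kinesin Kif20b (0.78 (SE 0.24)). Zfp950 and Kcnq1ot1 had negative folds at 12 h (-0.12 and -0.46) and positive ones at 24 h (0.61 and 0.64) in the authors' deposited tables. Kcnq1ot1 runs antisense to Kcnq1, and without strand their reads cannot be told apart where they overlap. At 24 h the SE exceeded that of similar genes 3.75 times in Cep290, 2.94 times in Ankrd12 and 2.92 times in Tsc22d3. None of these 10 differences passed the adjusted threshold in the Wald test.

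**Figure D3:**
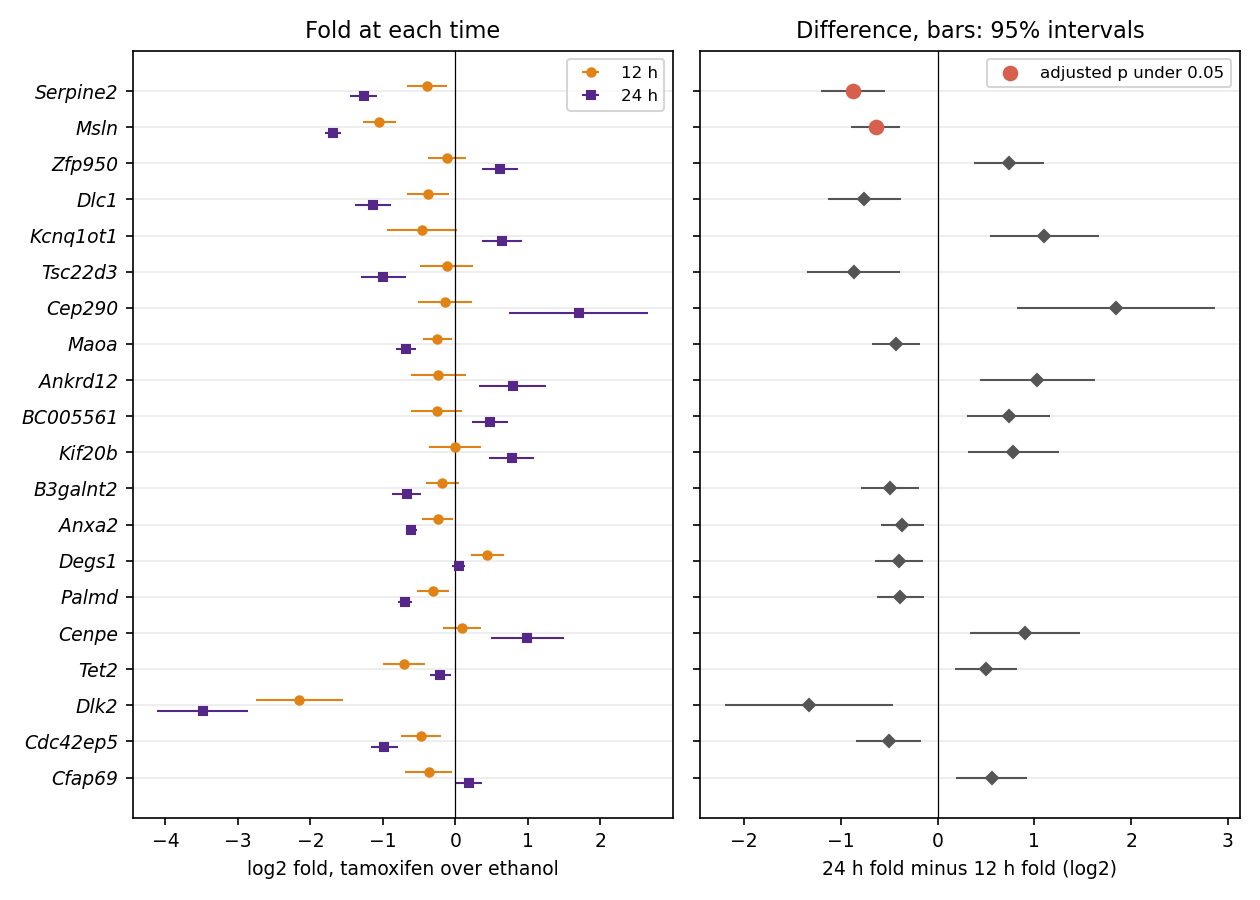
Folds at 12 h and 24 h (left, log2) and their difference (right, 24 h minus 12 h), with bars for 95% intervals, for the 20 genes of smallest p of the difference among genes whose mean reached 50 normalised counts. Serpine2 and Msln, in red, are the 2 that passed an adjusted p under 0.05, both lower at 24 h.

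A p that misses the threshold does not show equal folds, so the intervals were counted. The 95% interval of the difference lay within 0.5 on either side of 0 for 5971 genes, among them 726 of the 1574 called in the combined fold, but only 30 of the 375 with a combined size of 0.5 or more. Within 1 on either side it lay for 1353 of the 1574 and 204 of the 375. For most genes of large combined fold, the data thus leave room for a difference of 0.5 between the times. Among called genes of at least 0.5 the best determined differences were those of Anxa2, the annexin Anxa3 (-0.15 (SE 0.12)), palmdelphin (Palmd, -0.38 (SE 0.12)), Maoa, Msln and the macrophage growth factor Csf1 (-0.11 (SE 0.13)). Csf1 rose at both times, by 0.64 and 0.53 in the authors' deposited tables, and its interval ran from -0.36 to 0.15.

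A few genes passed at one time and not in the combined fold: 2 of the 123 called at 12 h and 145 of the 1447 called at 24 h. Degs1, the desaturase that makes ceramide, was the named one at 12 h, with 0.44 (SE 0.12) against 0.04 (SE 0.05) in the authors' deposited tables and a difference of -0.40 (SE 0.13) (unadjusted p 0.00162). At 24 h these were the kinetochore motor Cenpe (0.09 and 0.99 in the authors' deposited tables), BC005561 (-0.26 and 0.47), Arhgap19, a GTPase-activating protein (-0.02 and 0.49), Cep290 and Pitpnm1 (-0.13 and 0.20). The combined fold of Cep290 was 0.09 (SE 0.18). Part of the 145 goes with the adjustment: with the 24 h p-values adjusted over the same 14981 genes, 1328 were called and 93 of these were not called in the combined fold.

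Gene lists were then read by their counts beside the background of 5.67% combined falls and 4.84% rises, with medians over all genes near 0 at both times. Among the 9860 genes of higher mean 758 fell and 657 rose, so both shares were higher there than over all genes. Most members of some lists reach that mean, as do 72 of 77 cytosolic ribosomal and 75 of 78 oxidative phosphorylation genes. Annexins, S100 proteins and the Ahnak scaffold are proteins of which many bind membranes or each other. Their list held the highest share of falls among the lists of at least 10 members. The lists were chosen with earlier results of these data known, so this rank is a description and no separate support. Of the 23 members of the annexin list 12 fell, 2 rose and 9 did not pass, with median folds of -0.33 at 12 h and -0.31 at 24 h. Beside Anxa8 and Ahnak, S100a10 fell by 0.74, its partner Anxa2 by 0.57, S100a4 by 0.78 and S100a6 by 0.68 on the log2 scale. Anxa6 and Anxa5 rose by 0.45 and 0.18. Differences at an unadjusted p under 0.05 were found in 4 members, all lower at 24 h, beside 0.647% of all genes: Anxa8 (-0.64 (SE 0.24)), S100a6 (-0.37 (SE 0.17)), Anxa2 and S100a10 (-0.34 (SE 0.16)). The Ahnak fold was alike at the times, -0.93 (SE 0.17) and -0.84 (SE 0.05) in the authors' deposited tables.

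**Figure D4:**
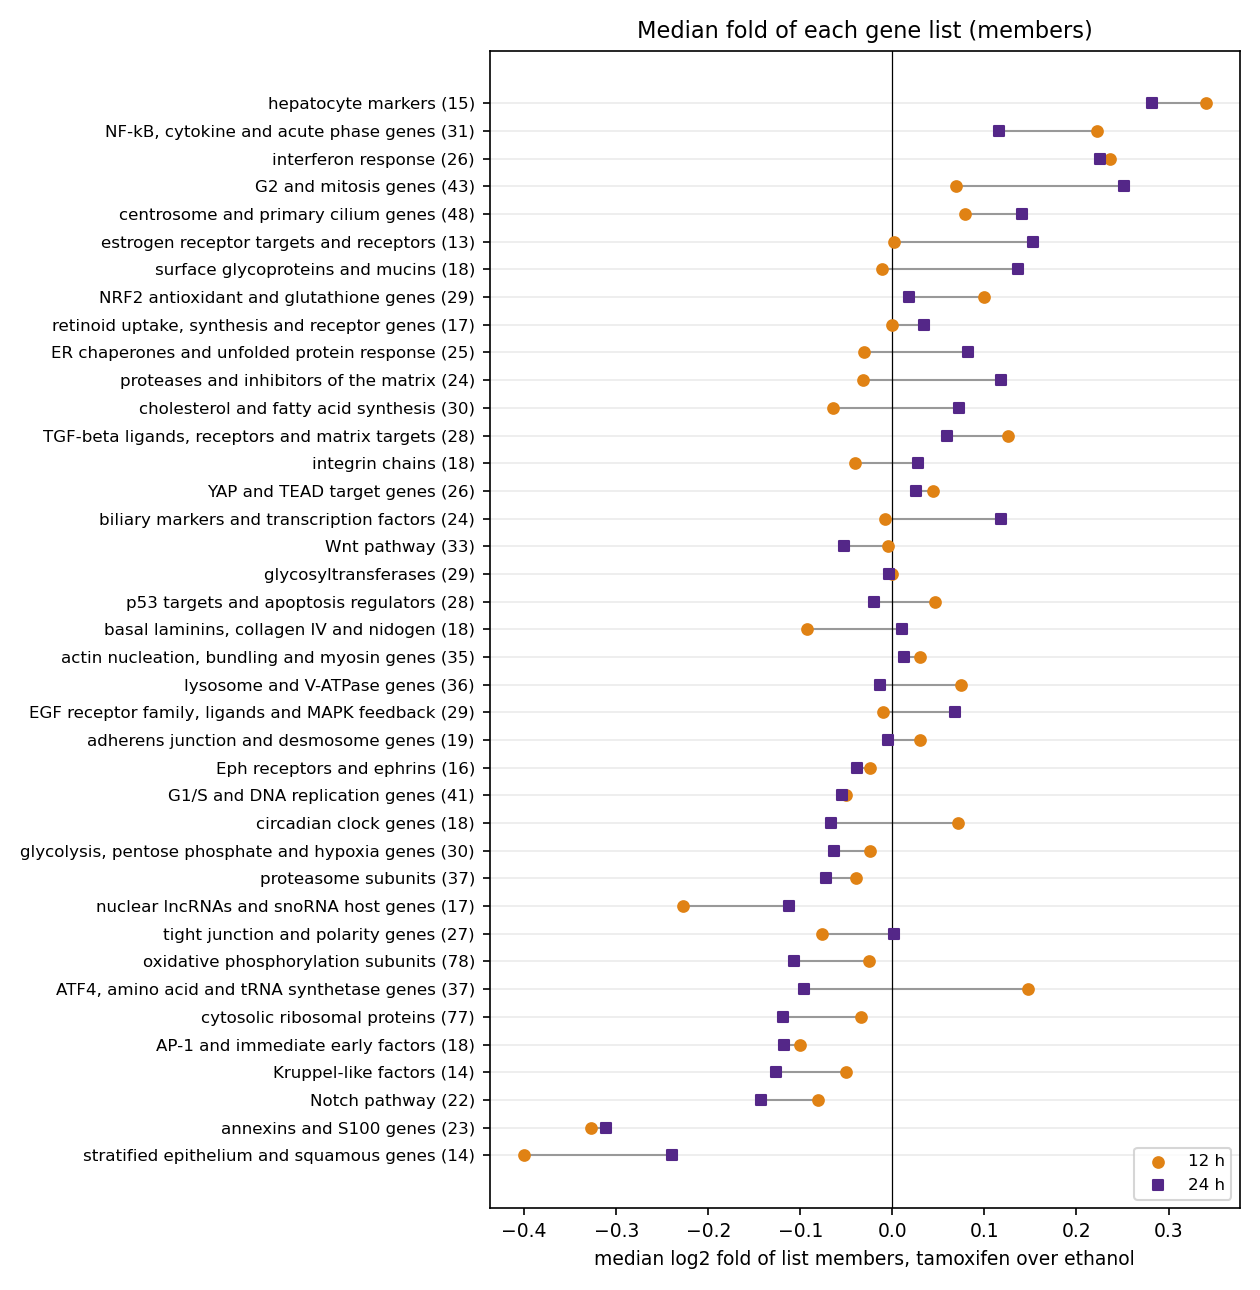
Median log2 fold of the members of each gene list with at least 10 members (number in brackets) at 12 h and at 24 h, ordered by the median combined fold. Annexins and S100 genes are low at both times, G2 and mitosis genes move from 0.07 to 0.25, and the ATF4 list moves from 0.15 to -0.10.

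The median fold of tamoxifen over ethanol of G2 and mitosis genes was higher at 24 h than at 12 h. Of 43 members 14 rose, none fell and 29 did not pass in the combined fold. The median fold was 0.07 at 12 h and 0.25 at 24 h, and the authors' deposited tables called 0 members at 12 h and 19 at 24 h, all higher, beside 4.59% of all genes called higher at 24 h. The 24 h fold was the higher one in 39 of 43, and the 7 members with an unadjusted p of the difference under 0.05 were all higher at 24 h, beside 0.988% of all genes; none passed the adjusted threshold. Cenpf, a kinetochore protein, had 0.19 (SE 0.23) and 1.05 (SE 0.20) in the authors' deposited tables and a difference of 0.86 (SE 0.30), the proliferation antigen Mki67 one of 0.56 (SE 0.28) and the spindle factor Tpx2 one of 0.30 (SE 0.14). Top2a, the topoisomerase of chromosome condensation, rose by 0.23 with a difference of 0.09 (SE 0.19). The implied ethanol level of these genes was lower at 24 h in the separately normalised tables, 1004 and 125 for Cenpf, 3342 and 419 for Mki67 and 5901 and 2089 for Top2a, and the part of that drop in the larger fold was not tested. Genes of G1/S and DNA replication did not follow: 3 of 41 fell, 0 rose and 38 did not pass, with medians of -0.05 at both times, and the cell cycle factor E2f2 fell by 0.67, with a difference of -0.63 (SE 0.28). Of 48 centrosome and cilium genes 8 rose, none fell and 40 did not pass, among them the scaffold Pcm1 (0.31 (SE 0.07)), the fibrocystin gene of polycystic liver and kidney disease Pkhd1 (0.43 (SE 0.11)), Cep192 (0.18 (SE 0.05)) and the ciliary transport gene Ift74 (0.40 (SE 0.11)).

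Epithelial identity genes moved in part. Of 24 biliary genes, 4 fell, 3 rose and 17 did not pass. The biliary keratins Krt7 and Krt19 fell by 0.57 and 0.41, and the tetraspanin Tspan8 by 0.56. The authors' deposited tables give Krt7 -0.80 (SE 0.17) at 12 h and -0.33 (SE 0.18) at 24 h, with a difference of 0.48 (SE 0.25) and an unadjusted p of 0.0530. Onecut2, a biliary factor, had -0.27 (SE 0.18) and 0.29 (SE 0.06) there and a difference of 0.56 (SE 0.19); it was named after its values were seen. Of 14 squamous genes 3 fell and none rose: Sprr2h, Sprr1a (-0.32 (SE 0.08)) and Perp (-0.21 (SE 0.06)). Sprr1a was at -0.72 (SE 0.19) at 12 h and -0.22 (SE 0.09) at 24 h in the authors' deposited tables, with a difference of 0.50 (SE 0.21) at an unadjusted p of 0.0194. Apart from Klf5, 5 of 14 Krüppel-like factors fell and none rose, led by Klf3 (-0.41 (SE 0.05)), Klf6 (-0.36 (SE 0.08)), Klf16 (-0.22 (SE 0.07)) and Klf13 (-0.15 (SE 0.05)), and none of the 14 had a difference at an unadjusted p under 0.05. Hepatocyte markers counted 3 rises and 0 falls of 15, and the rises were Trf (0.30 (SE 0.06)), Apob (0.33 (SE 0.09)) and Cebpa (0.33 (SE 0.10)). The median folds of 0.34 and 0.28 were below the median SEs of 0.512 and 0.440, and 7 of the 15 reached a mean of 50. The part of any other cell type in these values was not tested.

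Matrix, protease and adhesion genes fell and rose side by side. In a list of 18 genes of basal laminins, collagens IV and nidogens, which also holds Col18a1, 5 fell and 3 rose. The laminin chain genes Lamb3 and Lamb2 fell by 0.90 and 0.30, while Col18a1 and Col4a1 rose by 0.52 and 0.30. The 24 h SE of Lamb3 was 4.00 times that of genes of similar mean. Col18a1 had a difference of 0.42 (SE 0.14) at an unadjusted p of 0.00321. Of 24 matrix proteases and inhibitors 7 fell and 4 rose; Plaur, the urokinase receptor, had -1.10 (SE 0.24) and -1.24 (SE 0.08) in the authors' deposited tables and a combined -1.23 (SE 0.08), and the metalloproteinase inhibitor Timp2 fell by 0.39. Among 18 integrin chains 2 fell and 1 rose: Itgb6, of the integrin that frees TGF-beta, had a combined -1.16 (SE 0.15) and a difference of -0.91 (SE 0.37) at an unadjusted p of 0.0150, and Itga3 rose by 0.36. Tight junction genes counted 5 falls and 1 rise of 27, led by Cgnl1 (-0.32 (SE 0.04)), Tjp1 (-0.27 (SE 0.04)) and Cldn2 (-0.34 (SE 0.06)), and adherens junction genes 3 falls of 19, each between -0.21 and -0.15 (Perp, Mllt4 and Ctnna1). Of 35 actin and myosin genes 3 fell and 4 rose; after Cobl came Ezr, the microvillus linker ezrin, at -0.29 (SE 0.08) and -0.29 (SE 0.06) in the authors' deposited tables, and the motor Myo6 (0.35 (SE 0.06)) rose. Glycosyltransferases counted 5 falls and 1 rise of 29, with the N-glycan enzyme Mgat3 at -1.18 (SE 0.10) and the mucin-type enzyme Gcnt3 at -1.23 (SE 0.15). Both fell more at 12 h by the point values, with differences of 0.37 (SE 0.24) and 0.41 (SE 0.33) that did not pass.

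Signalling lists were split. Of 33 Wnt pathway genes 8 fell and 2 rose, and 5 of the falls were ligand genes. Wnt10a fell by 0.85, Wnt4 by 0.71 and Wnt7b by 0.39, and the receptor Fzd7 by 0.27. Wnt10a had -0.88 (SE 0.16) and -0.83 (SE 0.16) in the authors' deposited tables. Of 29 EGF receptor and MAPK genes 6 fell and 4 rose, among them the receptor Egfr (-0.30 (SE 0.06)), its ligand Btc (-0.46 (SE 0.10)), the phosphatase Dusp1 (-0.70 (SE 0.07)) and the ETS factor Etv5 (0.46 (SE 0.10)); Dusp1 had -0.70 (SE 0.20) and -0.70 (SE 0.08) in the authors' deposited tables. Among 18 AP-1 and immediate early genes 4 fell and 1 rose, led by Ier5 (-0.38 (SE 0.06)), Fosb (-0.73 (SE 0.17)) and Fos. Of the 16 with a mean of at least 50, 5 had a 12 h SE over 2 times that of genes of similar mean. At 24 h 4 did, against 175 and 147 of all 9860 genes at 12 h and 24 h. The SE of Fosb was 3.88 times that of similar genes at 12 h and 2.99 times at 24 h. YAP targets counted 4 falls and 5 rises of 26. The matricellular target Ctgf had -1.01 (SE 0.15) and -1.05 (SE 0.10) in the authors' deposited tables and a difference of -0.04 (SE 0.18), with 23.2% of its exon bases shared with a gene on the other strand; Ajuba (-0.39 (SE 0.06)) and the TEAD factor Tead4 (-0.41 (SE 0.09)) also fell, and Nuak2 rose by 0.26. TGF-beta genes counted 6 rises and 2 falls of 28: beside Fn1 and Thbs1, the signal transducer Smad3 rose by 0.23. Of 22 Notch genes 4 fell and 2 rose, with Jag2 (-0.21 (SE 0.06)) and Notch2 (-0.15 (SE 0.04)) after Dlk2, and Maml2, a Notch coactivator, rose by 0.45. Eph genes counted 4 falls and 1 rise of 16. The receptor Epha5 had -1.64 (SE 0.24) at 12 h and -0.88 (SE 0.13) at 24 h in the authors' deposited tables, with means of 76.4 and 324 normalised counts there and a difference of 0.76 (SE 0.27) at an unadjusted p of 0.00566; Epha2 and Epha4 fell by 0.51 and 0.25.

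Most cytokine and interferon genes did not pass, and their precision was uneven. Of 31 NF-kB and acute phase genes 6 rose, 2 fell and 23 did not pass, with medians of 0.22 and 0.12: Ccl2, Ccl7 (0.58 (SE 0.15)), Csf1 and C3 rose, and the alarmin Il33, named after its value was seen, fell by 1.75. Il33 did not meet the limits on mean and sign under which the deepest falls are given above. Of the 22 list members with a mean of at least 50, 12 had a 24 h SE over 2 times that of genes of similar mean, against 147 of all 9860, so the 12 h folds weighed more here: the median 24 h weight was 46.2%. Ccl2 was called at 12 h in the authors' deposited table (0.89 (SE 0.12)) and not at 24 h (0.55 (SE 0.32)), and its difference of -0.34 (SE 0.35) had an interval from -1.01 to 0.34. Interferon genes counted 5 rises and 1 fall of 26, and 20 did not pass; their medians of 0.24 and 0.23 were below the median SEs of 0.445 and 0.407, and 10 of the 26 reached a mean of 50; the factor Irf1 rose by 0.47 and the RNA sensors Ifih1 and Ddx58 by 0.46 and 0.35, and Isg20 fell by 0.31.

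Stress genes were measured less precisely at 12 h. Of 37 genes of the ATF4 programme, which raises amino acid supply and tRNA charging under stress, 9 fell, none rose and 28 did not pass in the combined fold, with medians of 0.15 at 12 h and -0.10 at 24 h and the same sign in 14 of 37. Of the 36 with a mean of at least 50, 32 had a 12 h SE over 2 times that of genes of similar mean, against 175 of all 9860, and the median of that ratio was 3.76. The 24 h fold held a median of 98.9% of the weight, so the combined fold of this list is in effect that of 24 h. The serine synthesis enzyme Phgdh fell by 0.36, the stress factor Ddit3 by 0.24, Cebpb by 0.29 and the folate enzyme Mthfd2 by 0.14. Ddit3 had -0.08 (SE 1.01) at 12 h in the authors' deposited table, an SE 7.31 times that of genes of similar mean, and Trib3, a target of the same programme named after its value was seen, 0.20 (SE 1.27), at 9.38 times. No member had a difference at an unadjusted p under 0.05, and the SE of the difference was 1.01 for Ddit3 and 1.27 for Trib3. Of 25 chaperones and sensors of the endoplasmic reticulum 5 rose and 1 fell, with the same sign at both times in 7: the sensor kinase Ern1 rose by 0.38 and the degradation gene Herpud1 fell by 0.28.

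**Figure D5:**
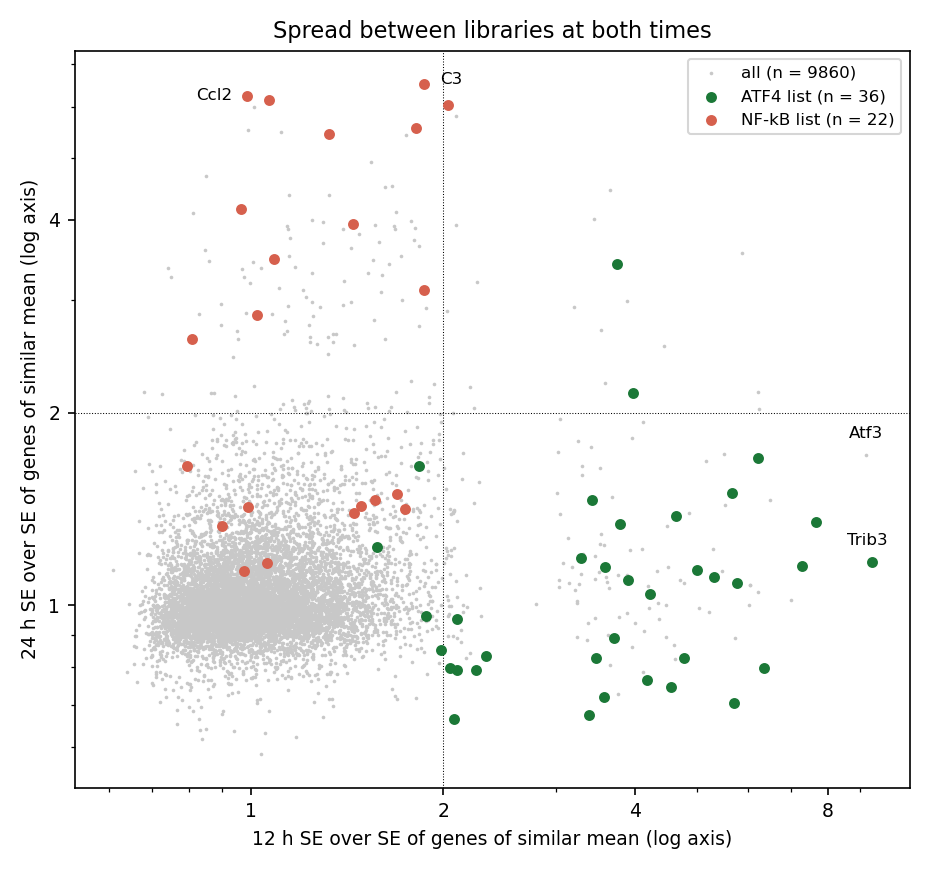
SE of each gene's fold over the median SE of genes of similar mean, at 12 h (horizontal axis) and at 24 h (vertical axis), both on log axes, for the 9860 genes whose mean reached 50 normalised counts. Members of the ATF4 list lie to the right of 2 in 32 of 36 cases and members of the NF-kB list above 2 in 12 of 22.

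Ribosomal and oxidative phosphorylation genes had small median folds, while metabolic lists held some large ones. Cytosolic ribosomal proteins counted 7 falls and 0 rises of 77, with medians of -0.03 and -0.12 at 12 h and 24 h, and oxidative phosphorylation subunits 11 falls and 0 rises of 78, with medians of -0.03 and -0.11. Rpl38 fell by 0.23, and the ATP synthase genes Atp5b and Atp5k by 0.13 and 0.34. Proteasome subunits counted 5 falls and 1 rise of 37, the rise being the immunoproteasome subunit Psmb10 (0.55 (SE 0.12)), and lysosome genes 7 falls and 2 rises of 36, led by the proton pump subunit Atp6v0b (-0.31 (SE 0.04)). In glycolysis and hypoxia genes 5 fell and 3 rose of 30: Pgk1, of glycolysis, was at -0.30 (SE 0.10) and -0.33 (SE 0.05) in the authors' deposited tables, and G6pdx, of the pentose phosphate pathway, at 0.71 (SE 0.13) and 0.47 (SE 0.10). Of 29 NRF2 and glutathione genes 4 fell and 5 rose, with the glutathione transferases Gsta1 and Gstm1 at -0.83 (SE 0.14) and 0.40 (SE 0.07) and catalase (Cat) at 0.25 (SE 0.04). Cholesterol and fatty acid genes counted 2 rises and 1 fall of 30, the desaturase Scd2 having the largest rise (0.43 (SE 0.05)). Clock genes counted 5 falls and 3 rises of 18, in which the repressors Per2 (-0.42 (SE 0.08)) and Cry1 (-0.36 (SE 0.08)) fell and Nr1d1 (0.48 (SE 0.11)) rose. In the retinoid list of 17, the retinoic acid enzymes Rdh10 and Aldh1a1 fell by 1.28 and 1.23 while the retinol receptor Stra6 rose by 0.78 and Rbp4, the retinol carrier, by 0.17. Of 28 p53 and apoptosis genes 4 fell and 3 rose, among them Mcl1 (-0.20 (SE 0.04)) and Btg2 (0.32 (SE 0.08)). Nuclear noncoding RNAs and snoRNA hosts counted 5 falls and 1 rise of 17, with the hosts Snhg1 (-0.37 (SE 0.10)) and Snhg12 (-0.41 (SE 0.10)) among the falls; the 12 h SE of Snhg1 was 6.26 times that of similar genes. 4-OH tamoxifen is also a ligand of estrogen receptors, and the list of these receptors and their targets counted 2 rises and 0 falls of 13. Only 6 of the 13 reached a mean of 50, and the median SEs were 0.787 at 12 h and 0.874 at 24 h. Most members were thus measured too imprecisely to read the count, and an effect through these receptors was not tested.

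Calls also went with the length of the gene. Genes of the higher mean with a GENCODE model were put in 10 equal bins of exon length, of which the shortest held 9.17% combined falls and 3.67% rises and the longest 6.32% and 12.3%. The median combined fold went from -0.05 to 0.03 between them. In 10 bins of the mean at 24 h, the lowest held 3.65% falls and 5.38% rises and the highest 17.6% and 9.43%. The part of length and level in the counts above was not tested.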

How the data were processed

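RNA-seq libraries were made with a TruSeq RNA v2 kit, which does not mark strand, per the labels' protocols. HISAT2, DESeq2 and mm10 are named in the submitters' processing notes, without versions, roles or order; how reads were counted, with which annotation and with which design formula is not given in the sources used here. For each gene the deposited tables hold, per the file headers, the mean normalised count over libraries (a signal, not corrected for length), the log2 fold with its standard error, the Wald score and the p-value, raw and adjusted. Levels of different genes were therefore not compared. The deposited score equals fold over SE. The 7 lowest distinct means at 12 h were taken, as many as there are libraries. Of these, 3 had negative and 4 had positive folds, as 3 ethanol and 4 tamoxifen libraries give for tamoxifen over ethanol. At 24 h the split is 4 and 4 and does not check direction. The ethanol library with number 2 of the 12 h set is not analysed here.

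Samples were grouped by their titles. The design foresaw counts per library, with comparison columns as the fallback, which applied. The inverse-variance mean of the 2 folds and their difference were tested with a two-sided Wald test against the normal, with Benjamini-Hochberg adjustment over 14981 genes, a threshold of 0.05 and 95% intervals, in Python 3.11.15 with scipy 1.17.1, pandas 2.3.3 and numpy 2.4.6 (figures: matplotlib 3.10.9); the code was tested on simulated data. A blank adjusted p in the authors' deposited tables stayed blank and counted as no call. The SE of similar genes is the running median over 100 genes on each side by mean. Implied levels follow from the mean, the fold and the number of libraries. The members and the 42 gene lists were chosen with earlier results of these data known, and lists are described by counts and medians, with no set test.

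Genes named are Klf5 and, among genes whose mean reached 50 normalised counts at both times, without symbols of unnamed genes (Gm and a number, Rik, -ps), these: the 12 largest combined falls and rises of the same sign at both times, the 6 smallest combined p per direction, genes with an adjusted p of the difference under 0.05, up to 6 per direction called in the combined fold alone, up to 5 per time called at that time alone, the 6 with the smallest SE of the difference among called folds of at least 0.5, and up to 4 members per list with the smallest combined p where 3 or more were called or 1 differed. Other members of lists, and genes said to be so, were named after their values were seen. Some genes that the rule names are not reported here. Positions and exon lengths come from GENCODE on GRCm38, which mm10 names, and 14818 of the 14981 genes were found there. Promoters come from RefSeq on GRCm38.p6; 77.8% of the genes matched them by symbol or by a synonym of 1 gene, under the 80% needed, so a comparison of motif shares between called genes is void and not given. Alternatives were other weights and models, single times, filters on low means, centring, a floor on the SE and a scaled response.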

Additional observations from a re-analysis of the deposited data

Results flagged for a closer look

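The effect of tamoxifen differed between 12 h and 24 h in 2 genes by a test of the difference itself. For Serpine2 the 24 h fold minus the 12 h fold was -0.87 (SE 0.17) on the log2 scale, and for Msln it was -0.64 (SE 0.13), with adjusted p of 0.00346 and 0.00485 in the Wald test over 14981 genes. Both genes fell at both times, and both by more at 24 h.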

How the results depend on the processing

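Precision was lower at 12 h, where the median SE was 0.159 against 0.0777 at 24 h among the 9860 genes of higher mean. The 12 h set had 3 ethanol libraries and the 24 h set 4, and the cause of the lower precision was not tested. Equal weights gave 370 combined falls and 305 rises in place of 849 and 725, and 12 h alone gave 94 and 23; of the 1574 combined calls they kept 669 and 116. Of 132 genes named, 37 were no longer called with equal weights, 98 with 12 h alone, 22 with 24 h alone, 22 with random effects, 9 with the Stouffer sum and 1 with the floor on the SE, all of the same sign. Under the other planned settings (Stouffer sum, random effects, 24 h alone, 3 filters on low means, centring, a floor on the SE), falls ranged from 647 to 915 and rises from 530 to 782. With 12 h alone the sign of Cebpb (0.15), Cep290 (-0.15), Herpud1 (0.16) and Mthfd2 (0.25) turned, and with equal weights that of Mthfd2 (0.051), whose 12 h SE was large. The difference was called lower at 24 h in 2 genes and higher in 0 under the filters, centring and division by the slope of 24 h on 12 h folds (0.972 over 1474 genes), and in 1 and 0 with the floor on the SE, where Msln had an adjusted p of 0.0626 by the Wald test. Chosen after seeing the data were scores of the difference divided by their robust SD (15 lower and 19 higher), 12 h SEs multiplied by the robust SD of the 12 h scores (938 falls and 791 rises), and leaving out 316 genes of large spread (776 and 690, with 2 and 0 differences). No paired analysis was possible because the tables hold no value per library, and leaving out replicates was not run for the same reason.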
